A study of Mus musculus with 6 samples.

Results

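The genes examined here were 35 genes of mural cells and meningeal fibroblasts, chosen by symbol from knowledge of these cell types and found in the count files by their Ensembl identifiers in GENCODE M21 (build GRCm38). They were 35 of the 60354 features in each file, and all 35 were among the 18580 features that passed the filter on low counts. By class, they comprised 8 pericyte genes, 6 smooth muscle genes, 7 collagen genes, 7 genes of matrix proteoglycans and glycoproteins, and 7 meningeal genes of signaling, retinoid metabolism and transport. RNA-seq was performed on whole brains of male C57BL/6NCrSlc mice that began the diets at 16 weeks of age. The 3 PLDP mice (mice 17, 22 and 26) had eaten PLDP, a protease digest of porcine liver, as 20% of a modified AIN-93M diet for 16 weeks. The 3 control mice (mice 2, 5 and 10) had received a modified AIN-93M diet of adjusted calories. All mice then went through behavioral testing, during which no PLDP diet was given, and RNA was taken the day after the last test. The comparison thus asks whether brain expression of these genes differed after long-term PLDP ingestion.

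Mural cells wrap the wall of brain vessels. Pericytes sit on capillaries within the vascular basement membrane and depend on PDGF-B from the endothelium, which acts on their receptor PDGFRB, whereas smooth muscle cells contract around arteries and arterioles. Fibroblasts of the meninges and of the larger vessels make fibrillar collagens and small leucine-rich proteoglycans, and those of the leptomeninges also make retinoic acid and prostaglandin D synthase. In bulk RNA, fewer cells of a type and less RNA per cell cannot be told apart.

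Totals ranged from 18797061 to 23938729 counts per mouse. The neuronal gene Snap25 ranged from 1832 to 1917 CPM (counts divided by the TMM-scaled library size), the astrocyte gene Slc1a2 from 1407 to 1627 CPM and the myelin gene Mbp from 3016 to 3564 CPM. Foxj1, which drives ciliogenesis in ependyma, was listed at 0 in every mouse. How reads shared between features were counted is not given in the sources used here. Skeletal muscle and pituitary markers were scarce, with sums of at most 3.72 and 3.80 CPM per mouse.

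Start regions are shown for the genes on which the comparison turned. They were taken from RefSeq (GRCm38.p6), in which 24 of the 35 genes matched by symbol. Col4a1 and Col4a2, which encode the paired chains of basement membrane collagen, are transcribed away from each other, and their annotated starts overlap by 22 bases on chromosome 8. The overlap, chr8:11312805-11312826, reads on the plus strand, the strand of Col4a2:
Col4a2 and Col4a1 shared start: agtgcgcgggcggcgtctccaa
Rgs5 and Ogn were the other genes called between the diets that had an entry in this table. Their 250 bases upstream of the annotated start hold no annotated exon. Capitals mark TATAAA on either strand, 2 overlapping matches in the sequence of Ogn at 229 and 227 bases before the start.
Rgs5, chr1:169655251-169655500, plus strand: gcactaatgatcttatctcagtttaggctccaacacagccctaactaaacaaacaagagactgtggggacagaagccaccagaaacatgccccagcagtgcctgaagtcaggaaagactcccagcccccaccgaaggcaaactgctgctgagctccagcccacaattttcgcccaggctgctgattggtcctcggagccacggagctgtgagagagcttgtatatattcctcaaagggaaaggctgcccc
Ogn, chr13:49607765-49608014, plus strand: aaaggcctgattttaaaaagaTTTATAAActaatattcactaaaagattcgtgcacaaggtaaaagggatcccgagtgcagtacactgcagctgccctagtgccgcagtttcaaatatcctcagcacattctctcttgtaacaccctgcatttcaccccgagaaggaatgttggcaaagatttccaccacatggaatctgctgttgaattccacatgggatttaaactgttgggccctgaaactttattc
Smooth muscle genes are known for CArG boxes, the motif bound by serum response factor. Myl9 was the smooth muscle gene in the table with a CArG box in this window, shown in capitals, with its first base 161 bases before the start.
Myl9, chr2:156775293-156775322, plus strand: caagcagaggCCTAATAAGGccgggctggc
A CArG box was present upstream of 2 of the 24 genes, Myl9 and Igf2, and in 1.47% of all 32851 windows in the table. TATAAA was present for 3 genes, Col3a1, Ogn and Vtn, and in 12.4% of all windows. GTGGGAA, a motif of the Notch effector RBPJ, was present for 1 gene, Igf2, and in 5.42% of all windows. Both strands were searched, and a match is only a description of the letters.

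Levels of the genes differed widely (plot of levels per exon length). Per exon length, Ptgds was far above all others at 598 RPKM (mean of 6 mice), followed by Vtn at 29.9, Rgs5 at 20.6, Mgp at 17.4 and Col6a1 at 16.7 RPKM. Cnn1 was lowest at 0.274 RPKM, close to Igf2 at 0.352 and Col3a1 at 0.438 RPKM. The Igf2 level is uncertain, because 3596 of its 5723 exon bases are shared with Gm49394 on the same strand. The order depends on the exon length used. With the longest transcript in place of the union of exons, Mgp had 28.9 RPKM, above Rgs5 at 22.9, and Col3a1 had 0.773 RPKM, above Des at 0.627. Col1a2 went from 2.41 to 5.59 RPKM and Bgn from 2.17 to 4.97 RPKM, while Ptgds and Vtn stayed highest and Cnn1 lowest. Ptgds alone made up 60.6% of the summed CPM of the 35 genes. Mean counts ranged from 16.2 per mouse for Cnn1 to 20920 for Ptgds.

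**Figure D1:**
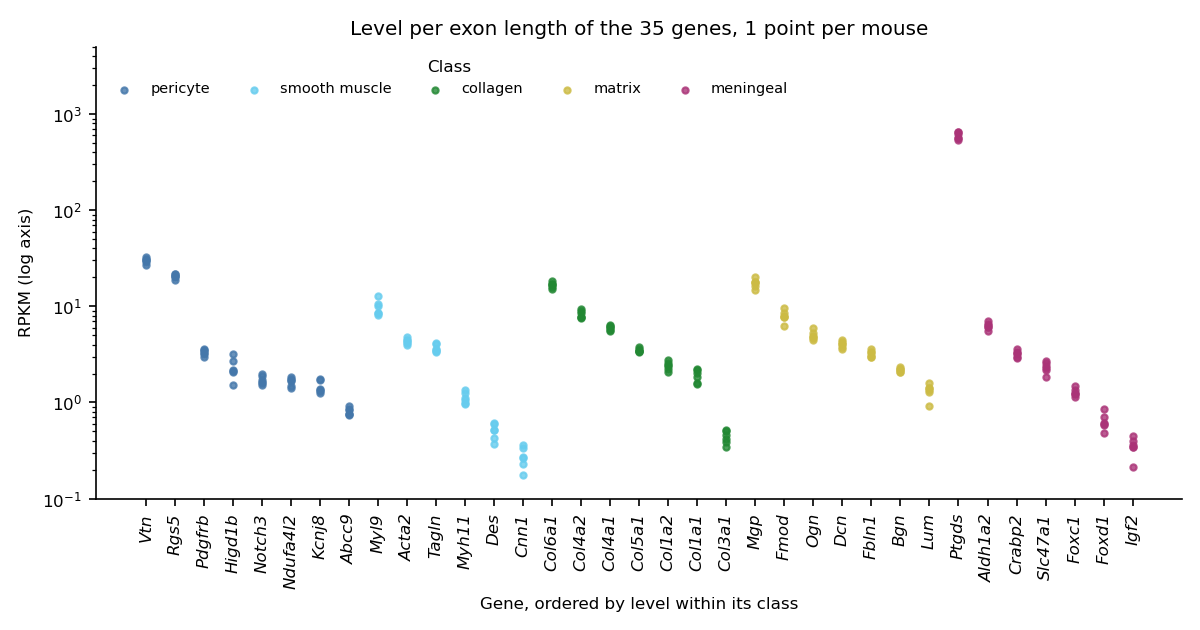
Level of each of the 35 genes in each of the 6 mice as RPKM (CPM per kilobase of exon, log axis), by class and ordered within it. Ptgds stands at 598 RPKM on average, and the lowest gene, Cnn1, at 0.274 RPKM.

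Few of the genes differed between the diets. Col4a2, Rgs5 and Slc47a1 were higher and Ogn was lower in PLDP-fed mice at an unadjusted p under 0.05, so that 4 of 35 genes were called by the quasi-likelihood test of edgeR, where 8.60% of all features tested were called. In the higher direction these were 3 of 35 genes against 4.91% of all features, and in the lower direction 1 of 35 against 3.69%. After Benjamini-Hochberg adjustment over all features, 0 of the 35 genes passed 0.05, against 0.0323% of all features, and the smallest adjusted p was 0.190, for Col4a2. Of the 35 genes, 19 had a positive and 16 a negative log2 fold change, where 50.2% of all features had a negative one. Their median was 0.0072, beside -0.00062 over all features tested, and it was -0.0068 without control mouse 5 and -0.016 without PLDP mouse 17. In 6 genes all 3 PLDP mice were above all 3 control mice, and in 1 gene, Ogn, they were all below, where 7.29% and 6.90% of all features separated in these directions and 14.2% in either. Without control mouse 5, 1 gene was called higher, Col4a2, and 5 were called lower, Ogn, Col1a1, Col1a2, Fmod and Ptgds, where 713 of all 18888 features tested were called higher and 513 lower (6.49% in both directions). Without PLDP mouse 17, 3 were called higher and 3 lower, where 12.55% of all features were called. None of the 35 genes was called lower without control mouse 2, control mouse 10 or PLDP mouse 22, where 5.95%, 8.47% and 8.18% of all features were called in either direction.

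**Figure D2:**
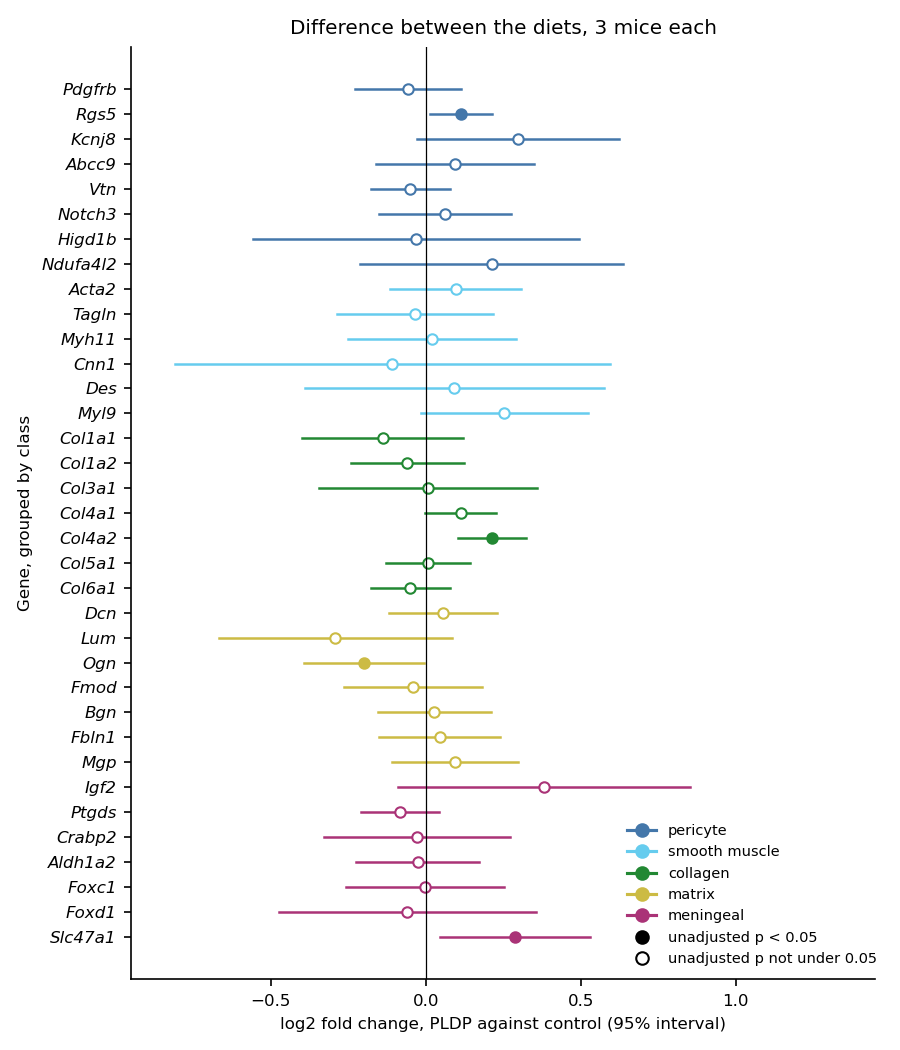
Log2 fold change of each gene, PLDP against control (3 mice each), with its 95% interval, by class. Filled points mark the 4 genes with an unadjusted p under 0.05, Rgs5, Col4a2 and Slc47a1 to the right of 0 and Ogn to the left.

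Over the 35 genes, the median absolute log2 fold change was 0.061, and the standard errors ran from 0.047 for Rgs5 to 0.33 for Cnn1. For 26 of the 35 genes the 95% interval lay entirely within 0.5 of no change on the log2 scale. The median spread between mice of the same diet was 0.128 on the log2 scale for these genes and 0.099 for all features tested.

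Among the collagens, Col4a2, a chain of the network-forming type IV collagen, was called higher, and none of the other 6 was called. Col4a2 (ENSMUSG00000031503, chromosome 8 from 11312805 to 11449287) had 50.6, 51.6 and 51.3 CPM in controls and 59.05, 57.1 and 62.0 CPM in PLDP-fed mice. The lowest PLDP mouse was above every control mouse. Col4a2 thus rose from 51.2 ± 0.55 to 59.4 ± 2.47 CPM (SD over 3 mice per diet), giving a log2 fold change of 0.21 (standard error 0.05, unadjusted p = 0.000673 and adjusted p = 0.190 by the edgeR fit), and its unadjusted p stayed under 0.05 in all 6 leave-one-out fits. Col4a1 (ENSMUSG00000031502, chromosome 8 from 11198423 to 11312826) had 44.5, 42.8 and 41.4 CPM in controls and 45.3, 47.5 and 46.3 CPM in PLDP-fed mice. All PLDP mice were again above all control mice, but the difference missed the threshold (log2 fold change 0.11, standard error 0.05, unadjusted p = 0.0529, adjusted p = 0.583 from the same test); without PLDP mouse 17 its unadjusted p was 0.0286. The count of Col4a2 per count of Col4a1, which no scaling between mice can change, was 1.14, 1.21 and 1.24 in controls and 1.30, 1.203 and 1.34 in PLDP-fed mice, so that the diets overlapped.

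Col1a1 and Col1a2, the chains of type I collagen, did not pass the test. Col1a1 had 14.3, 10.5 and 14.7 CPM in controls and 10.3, 12.2 and 13.4 in PLDP-fed mice (log2 fold change -0.14, standard error 0.12, adjusted p = 0.800). Col1a2 had 31.6, 25.7 and 34.4 CPM in controls and 29.5, 30.5 and 27.7 in PLDP-fed mice (log2 fold change -0.06, standard error 0.09, adjusted p = 0.900). In both genes control mouse 5 was the lowest control by a wide margin, and without it the values were -0.28 for Col1a1 (unadjusted p = 0.0239) and -0.17 for Col1a2 (unadjusted p = 0.0345). Col3a1, of type III fibrils, and Col5a1, which nucleates fibrils, both had a log2 fold change of 0.01, with intervals from -0.34 to 0.36 and from -0.13 to 0.14. Col6a1, of beaded microfibrils, was the collagen gene with the most counts and had 74.4 ± 5.97 CPM in controls and 71.9 ± 4.25 CPM in PLDP-fed mice (SD over 3 mice per diet; log2 fold change -0.05). The class of 7 collagens had a median log2 fold change of 0.0066 with 1 gene called higher and 0 lower. That median was negative without control mouse 2 (-0.031), control mouse 5 (-0.061), PLDP mouse 17 (-0.022) or PLDP mouse 22 (-0.045).

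**Figure D3:**
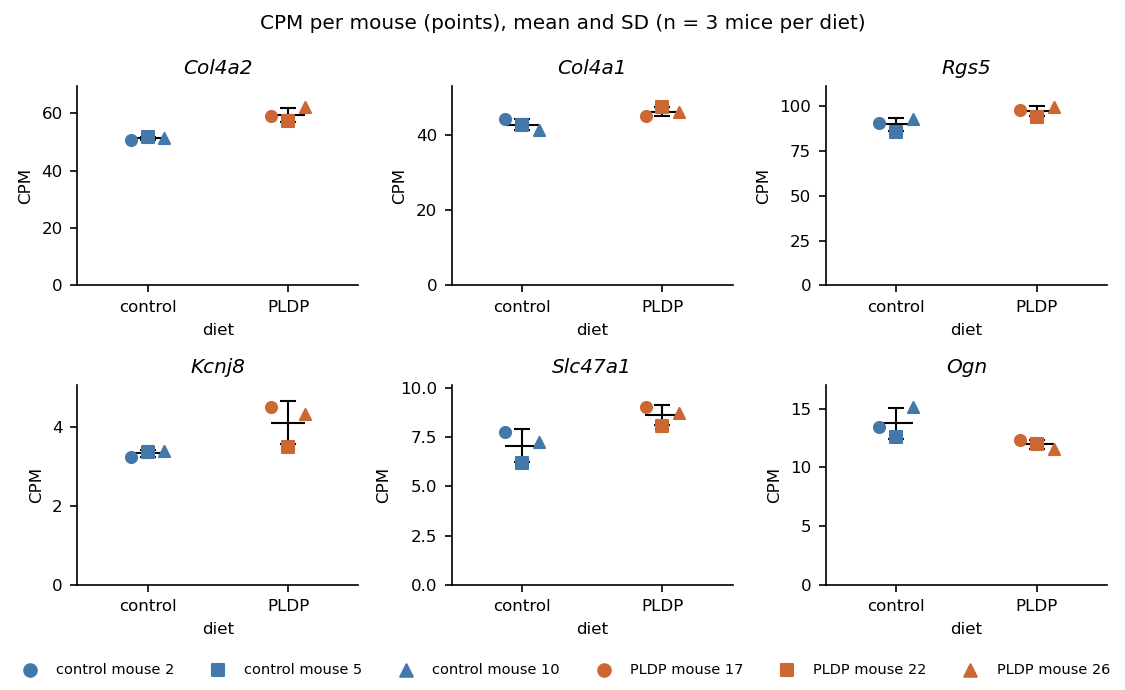
CPM of 6 genes in each mouse (points; control mice 2, 5 and 10, PLDP mice 17, 22 and 26), with the mean and SD of each diet. Col4a2, Col4a1, Rgs5, Kcnj8 and Slc47a1 were above all 3 controls in each of the 3 PLDP mice, and Ogn was lower in all 3.

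Of the 8 pericyte genes, 1 was called higher and 0 lower, and their median log2 fold change was 0.077. Rgs5, a regulator of G protein signaling and one of the most used pericyte markers (ENSMUSG00000026678, chromosome 1 from 169655501 to 169695813), had 90.8, 85.8 and 93.3 CPM in controls and 98.3, 94.3 and 99.5 CPM in PLDP-fed mice. The diets did not overlap, although control mouse 10 and PLDP mouse 22 were close. The log2 fold change of Rgs5 was 0.11 (standard error 0.05, unadjusted p = 0.0285 and adjusted p = 0.513), and the unadjusted p was 0.0588 without control mouse 2, 0.150 without control mouse 5 and 0.103 without PLDP mouse 26. Kcnj8 and Abcc9 encode the pore and the regulatory subunit of the vascular ATP-sensitive potassium channel. Kcnj8 (chromosome 6 from 142564837 to 142571614) had 3.22, 3.36 and 3.40 CPM in controls and 4.51, 3.48 and 4.33 in PLDP-fed mice, with PLDP mouse 22 next to the controls. Its log2 fold change was 0.30 (95% interval from -0.03 to 0.62, unadjusted p = 0.0704), and without PLDP mouse 22 the log2 fold change of Kcnj8 was 0.41 and passed the threshold (unadjusted p = 0.0219), bringing the pericyte genes called higher in that fit to 2. Abcc9, the neighbor of Kcnj8 on the same strand, had 6.40, 6.35 and 7.03 CPM in controls and 6.14, 7.76 and 7.16 in PLDP-fed mice (log2 fold change 0.09). PLDP mouse 17 was thus the highest mouse for Kcnj8 and the lowest for Abcc9.

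Pdgfrb, the receptor through which endothelial PDGF-B holds pericytes on the vessel, had 19.2, 17.7 and 18.8 CPM in controls and 19.5, 17.5 and 16.4 CPM in PLDP-fed mice. The values of the diets overlapped (log2 fold change -0.06, 95% interval from -0.23 to 0.11, adjusted p = 0.896). Vtn, which encodes vitronectin, an adhesion protein that pericytes secrete, had 61.8 ± 0.76 CPM in controls and 59.6 ± 5.63 in PLDP-fed mice (SD over 3 mice per diet; log2 fold change -0.05), and without PLDP mouse 17 the log2 fold change of Vtn was -0.12 (unadjusted p = 0.0274). Notch3, the Notch receptor of mural cells, had a log2 fold change of 0.06 with overlapping diets. Ndufa4l2, a mitochondrial protein gene rich in pericytes, was higher in all 3 PLDP mice, but on 32 to 45 counts per mouse (log2 fold change 0.21, 95% interval from -0.21 to 0.64). Higd1b, on a mean of 41.3 counts, had a log2 fold change of -0.03 with an interval from -0.56 to 0.49.

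None of the 6 smooth muscle genes passed the test in edgeR at an unadjusted p under 0.05 or after adjustment. Their median log2 fold change was 0.056, and it was -0.067 without PLDP mouse 17. Myl9, the regulatory myosin light chain of smooth muscle, had 9.48, 9.80 and 11.8 CPM in controls and 14.7, 12.2 and 9.89 in PLDP-fed mice. PLDP mouse 26 lay among the controls, while PLDP mouse 17 was above every other mouse (log2 fold change 0.25, 95% interval from -0.02 to 0.52, unadjusted p = 0.0645). For the log2 fold change of Myl9, the unadjusted p was 0.0172 with no filter on low counts, 0.0236 without control mouse 10 and 0.00543 without PLDP mouse 26. Acta2, smooth muscle actin, had 9.19 ± 0.59 CPM in controls and 9.81 ± 0.61 in PLDP-fed mice (SD over 3 mice per diet; log2 fold change 0.10), and it shares much sequence with the other actin genes. Myh11, the smooth muscle myosin heavy chain, had a log2 fold change of 0.02 and Tagln, an actin-binding protein, of -0.04. Des, the intermediate filament protein desmin, and Cnn1, calponin, had few counts, with 33 to 48 and 9 to 22 per mouse, and their intervals ran from -0.39 to 0.57 and from -0.81 to 0.59. In 3 of the 6 genes, Acta2, Myh11 and Myl9, PLDP mouse 17 was the highest of all mice. The summed CPM of the class was 46.3 in that mouse and between 36.4 and 39.4 in the other mice.

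Of the 7 genes of matrix proteoglycans and glycoproteins, 1 was called lower and 0 higher, and the class median was 0.027 on the log2 scale. It was -0.018 without control mouse 5, -0.016 without PLDP mouse 17 and -0.020 without PLDP mouse 22. Ogn, which encodes osteoglycin, a small leucine-rich proteoglycan (ENSMUSG00000021390, chromosome 13 from 49608046 to 49624501, within Cenpp on the opposite strand but sharing no exon with it), had 13.5, 12.6 and 15.2 CPM in controls and 12.3, 11.99 and 11.5 CPM in PLDP-fed mice. Its PLDP values lay below each control value, by a small margin from control mouse 5. Ogn fell by 0.20 on the log2 scale (standard error 0.09, unadjusted p = 0.0449 and adjusted p = 0.565 by the edgeR fit). Its unadjusted p was above 0.05 in 4 of the 6 leave-one-out fits, reaching 0.226 without control mouse 10, and was 0.0923 with DESeq2, 0.0507 with limma voom and 0.0531 with upper-quartile factors. Lum, the related proteoglycan lumican, had 3.32, 3.90 and 3.44 CPM in controls and 3.12, 2.26 and 3.42 CPM in PLDP-fed mice (log2 fold change -0.29, 95% interval from -0.67 to 0.08), and its unadjusted p was 0.0498 without PLDP mouse 26.

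Fmod, fibromodulin, had 28, 20.8 and 31.5 CPM in controls and 26.4, 25.9 and 25.5 CPM in PLDP-fed mice. The control mice lay on both sides of the PLDP mice, which were close together (log2 fold change -0.04), and without control mouse 5 the log2 fold change was -0.20 (unadjusted p = 0.0200). Dcn, decorin, had 23.2 ± 2.13 and 24.1 ± 2.14 CPM, and Mgp, the calcification inhibitor matrix Gla protein, had 20.0 ± 2.26 and 21.3 ± 2.596 CPM in the control and PLDP mice (SD over 3 mice per diet), with log2 fold changes of 0.05 and 0.09. Bgn, biglycan, and Fbln1, fibulin 1, had log2 fold changes of 0.03 and 0.04. For these 4 genes the diets overlapped.

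Among the 7 meningeal genes, Slc47a1 was called higher and 0 were called lower. The median of the class was -0.027 on the log2 scale, but 0.112 without control mouse 10 and 0.026 without PLDP mouse 26. Slc47a1, a transporter that exports organic cations in exchange for protons (ENSMUSG00000010122, chromosome 11 from 61343401 to 61378345), had 7.79, 6.17 and 7.28 CPM in controls and 9.07, 8.09 and 8.77 CPM in PLDP-fed mice. Every PLDP mouse was above every control mouse. The log2 fold change of Slc47a1 was 0.29 (standard error 0.11, unadjusted p = 0.0225 and adjusted p = 0.484). The unadjusted p was 0.126 without control mouse 5, 0.0614 without PLDP mouse 17 and 0.0561 with DESeq2. Ptgds, which encodes lipocalin-type prostaglandin D synthase and is made by the leptomeninges but also by oligodendrocytes and choroid plexus, had 1080, 931 and 1034 CPM in controls and 1063, 881 and 927 CPM in PLDP-fed mice. The diets overlapped, with PLDP mouse 17 at the level of the highest controls and control mouse 5 near the lower PLDP mice (log2 fold change -0.08, standard error 0.06, unadjusted p = 0.173). Without PLDP mouse 17 the log2 fold change of Ptgds was -0.17 (unadjusted p = 0.00133, adjusted p = 0.0878), without control mouse 5 it was -0.14 (unadjusted p = 0.0313), and with no filter on low counts the unadjusted p was 0.0158.

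Aldh1a2, which synthesizes retinoic acid, and Crabp2, which carries it to the nucleus, did not pass the test. Aldh1a2 had 14.4 ± 0.50 CPM in controls and 14.1 ± 1.70 in PLDP-fed mice, and Crabp2 had 4.30 ± 0.45 and 4.21 ± 0.28 CPM (SD over 3 mice per diet), with log2 fold changes of -0.03 for both and intervals from -0.22 to 0.17 and from -0.33 to 0.27. Foxc1 and Foxd1, transcription factors of meningeal development, had log2 fold changes of -0.0026 and -0.06. Igf2, an imprinted growth factor of the meninges and choroid plexus, had the highest fold change of the 35 genes without passing the test. It had 1.97, 1.23 and 2.09 CPM in controls and 2.28, 2.56 and 1.98 CPM in PLDP-fed mice, on 27 to 61 counts per mouse, and PLDP mouse 26 overlapped the controls (log2 fold change 0.38, 95% interval from -0.09 to 0.85). Igf2 shares 3596 exon bases with Gm49394 on the same strand, so its count depends on how shared reads were assigned. In all, 10 of the 35 genes share exon bases with another annotated gene, 2 of them, Igf2 and Col3a1, on the same strand.

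Some mice were high or low across a class (plot of each gene in each mouse). PLDP mouse 17 had the highest value for 12 of the 35 genes, among them 5 of the 8 pericyte genes, and control mouse 10 for 9, among them 4 of the 7 collagens. Control mouse 5 had the lowest value for 9 of the 35 genes, among them 4 of the 7 matrix genes (Dcn, Fmod, Fbln1 and Mgp). The median of the matrix genes was 0.12 below their mean in control mouse 5, on the log2 scale, and 0.07 and 0.06 above it in control mice 2 and 10. In the same mouse the summed CPM of the 7 blood markers was 327, against 586 and 523 in the other control mice and 401 to 494 in PLDP-fed mice. The part of blood or of the dissection in the values of this mouse was not tested.

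**Figure D4:**
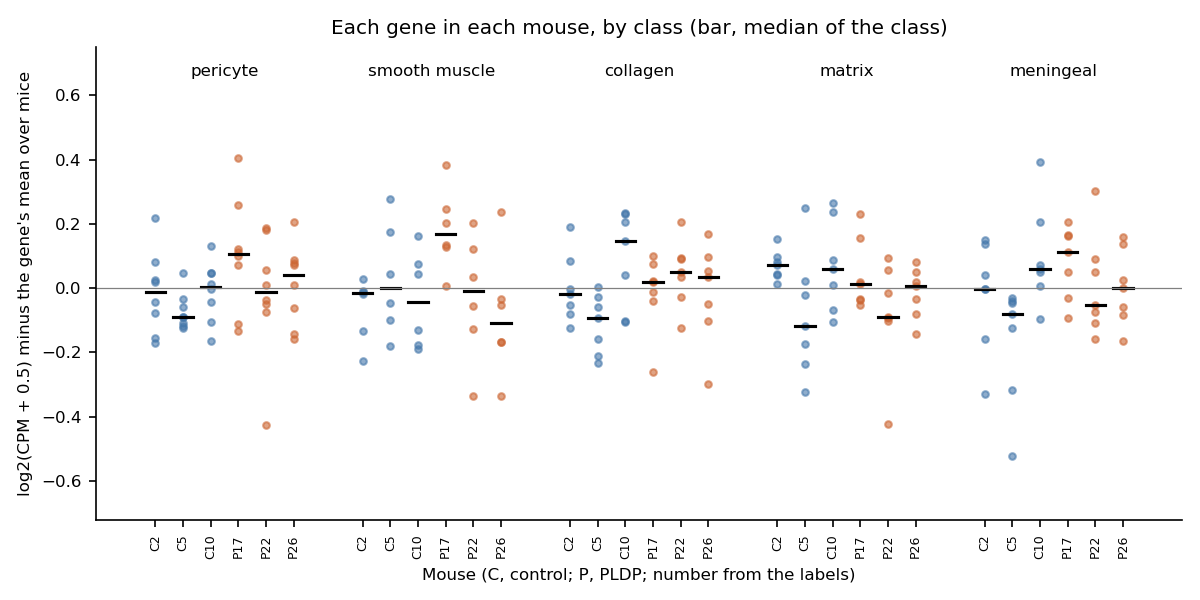
Each gene in each mouse as log2(CPM + 0.5) minus the gene's mean over the 6 mice, by class, with the class median as a bar. Control mouse 5 lies low in the matrix class, with a median of -0.12, and PLDP mouse 17 lies high in the smooth muscle class, with a median of 0.17.

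Markers of neighboring cell types were summed in the same mice. The 12 endothelial markers summed to between 357 and 376 CPM in controls and between 383 and 394 in PLDP-fed mice, without overlap. Of these markers 9 had a positive log2 fold change, 3 were called higher and 0 lower. The 3 were Pecam1, Flt1 and Slc2a1, with log2 fold changes of 0.25, 0.14 and 0.17 and BH-adjusted p of 0.336, 0.436 and 0.363 by the edgeR fit. Over all features tested, 4.91% were called higher and 3.69% lower, and these shares stand beside the counts of every marker list here. All PLDP mice were above all control mice in 7.29% of single features and below them in 6.90%. Endothelial cells also make type IV collagen, and the part of the endothelium in the higher Col4a2 and Rgs5 values was not tested. The 12 choroid plexus markers summed to between 1275 and 1359 CPM in controls and between 980 and 1257 in PLDP-fed mice, with 11 negative log2 fold changes and 3 called lower, Ttr, Enpp2 and Folr1. Ttr, with the most counts, had a log2 fold change of -0.22, and PLDP mouse 17 was the lowest mouse for it. The 7 perivascular macrophage markers summed to between 14.9 and 17.7 CPM in controls and between 15.3 and 16.3 in PLDP-fed mice, with 0 called by edgeR at an unadjusted p under 0.05. The 8 oligodendrocyte markers all had negative log2 fold changes, with 3 called lower, Mbp and Mal among them. They summed to between 5191 and 5583 CPM in controls and between 4830 and 5457 CPM in PLDP-fed mice. Markers of bone and dura, 4 of 7 tested, summed to between 33.2 and 34.3 CPM in controls and between 37.8 and 39.1 in PLDP-fed mice, with Alpl and Dmp1 called higher, while Bglap, Bglap2 and Ibsp had 0 to 6 counts per mouse. Their part in the higher Slc47a1 values was not tested. The neuron, astrocyte, microglia and ependyma lists had 0 markers called higher and 2 called lower, Aqp4 and P2ry12. None of the endothelial, choroid plexus, macrophage and oligodendrocyte markers was at 0 in any mouse, and the part of choroid plexus and oligodendrocytes in Ptgds and the other meningeal genes was not tested.

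**Figure D5:**
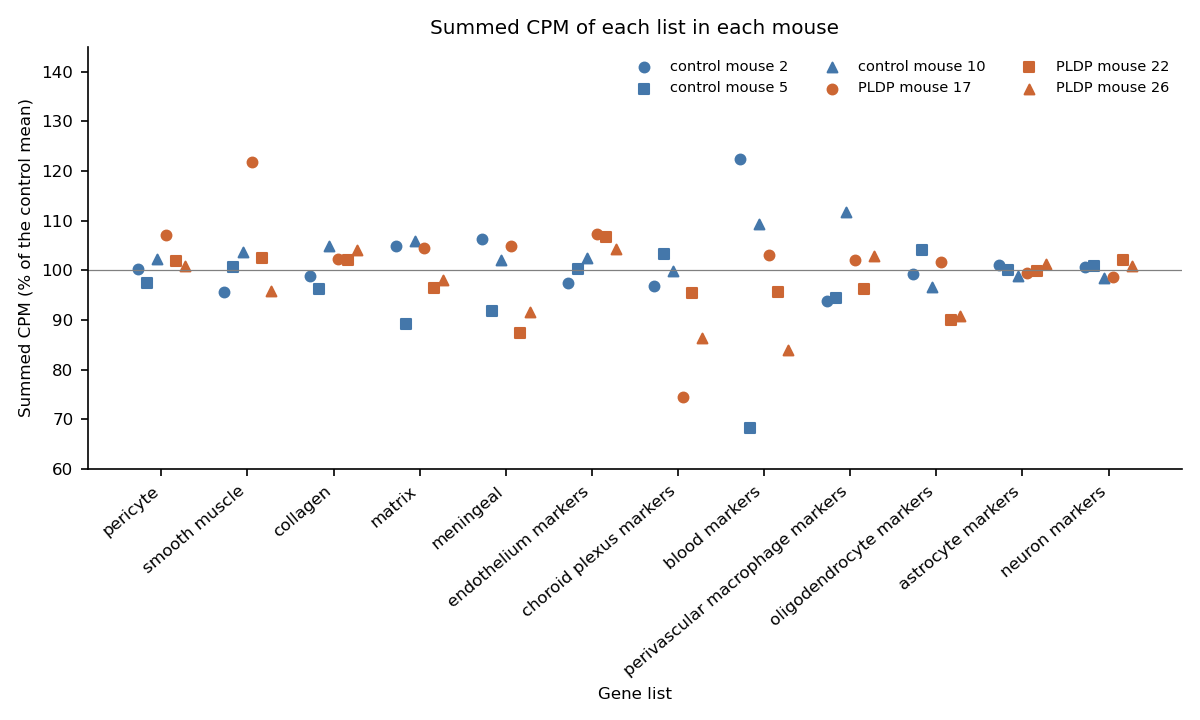
Summed CPM of each gene class and of marker lists of other cell types in each mouse, as a percentage of the mean of the 3 control mice. Endothelial markers were higher in all PLDP mice (383 to 394 against 357 to 376 CPM), while sums of the 5 classes overlapped between the diets and blood markers were lowest in control mouse 5.

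Other genes of these cells and pathways were examined in 6 further lists. Over these lists of mural, fibroblast, basement membrane, collagen processing, signaling and retinoid genes, 129 of 134 genes were tested, with 12 called higher, 3 lower and 0 after adjustment in edgeR. Together 11.6% of them were called, where 8.60% of all features were. The signaling list of PDGF, Notch and TGF-beta held 28 tested genes, with 6 called higher and 0 lower, where 4.91% and 3.69% of all features were. Its median change was 0.021 on the log2 scale. Pdgfb, the endothelial ligand of PDGFRB, had the smallest p of that list, with 22.6, 23.1 and 23.0 CPM in controls and 29.5, 26.9 and 28.5 CPM in PLDP-fed mice. The diets were clearly separated, and Pdgfb rose by 0.30 on the log2 scale (standard error 0.07, unadjusted p = 0.000256 and adjusted p = 0.132 by the edgeR fit), with an unadjusted p under 0.05 in all 6 leave-one-out fits. Mrtfa, a coactivator of serum response factor, and Smad3, which carries TGF-beta signals, followed with log2 fold changes of 0.15 and 0.14. The remaining 3 called genes were Mrtfb, Eng and Acvrl1.

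Of 33 other fibroblast genes tested, 1 was called higher and 3 lower, where 4.91% and 3.69% of all features tested were. Fn1, fibronectin, had 58.8, 54.2 and 70.7 CPM in controls and 70.9, 73.8 and 71.6 CPM in PLDP-fed mice, where control mouse 10 lay just below the PLDP mice (log2 fold change 0.24, standard error 0.07, adjusted p = 0.326). Spp1, Efemp1 and Igfbp2 had log2 fold changes of -0.19, -0.22 and -0.12. Of 24 other mural genes tested, Nes was called higher (log2 fold change 0.28) and 0 were called lower, and Cspg4, a classical pericyte proteoglycan, had a log2 fold change of 0.02 and Anpep of 0.04. Of the 13 laminin, nidogen and other basement membrane genes, 0 were called in edgeR at an unadjusted p under 0.05. P4ha1, a prolyl hydroxylase that acts on new collagen, was the called gene of 16 tested collagen processing genes, with 38.4, 36.2 and 39.1 CPM in controls and 37.3, 46.6 and 49.3 in PLDP-fed mice. PLDP mouse 17 lay among the controls (log2 fold change 0.23, adjusted p = 0.440). Among 15 retinoid handling genes tested, 3 were called higher and 0 lower, beside the same shares of 4.91% and 3.69% over all features. They were Rara, a retinoic acid receptor, Cyp26b1, which degrades retinoic acid, and Stra6, which takes up retinol. Their log2 fold changes were 0.32, 0.25 and 0.25, with BH-adjusted p of 0.363, 0.368 and 0.527 by the edgeR fit. In all 3 genes every PLDP mouse was above every control mouse, as in 7.29% of all features tested. The values of Aldh1a2 and Crabp2 were given before.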

How the data were processed

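The authors deposited 1 file per mouse with raw read counts per gene, without normalization, from stranded libraries of polyadenylated RNA. Per the labels, the submitters' processing notes name cutadapt 2.9, HISAT2 2.2.0, featureCounts 2.6.0 and DESeq2 1.6.3 and the builds GRCm38 and GRCh38, with no role; the strand setting is not given in the sources used here. Counts of overlapping genes and close paralogs are uncertain to that extent. Identifiers were matched to GENCODE M21 (54777 of 55034 Ensembl identifiers found; 5320 numbered features were kept in the tests).

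The differential expression analysis used edgeR 4.0.16 in R 4.3.3, in this order: filterByExpr (minimum count 10, minimum total 15), TMM, and the quasi-likelihood fit and test (glmQLFit, glmQLFTest) on diet alone, on all features, with Benjamini-Hochberg adjustment. Calls were made where the unadjusted p was below 0.05. Intervals are 95% and come from the fit. CPM uses TMM-scaled library sizes, RPKM the union of exons. An exact permutation test on 1 gene could not pass 0.05 with so few mice. Alternatives used DESeq2 1.42.0, limma 3.58.1, other scaling factors and filters, and each mouse left out. The fit was also run on simulated counts, and the outcome of that run is not reported here. Python 3.11.15, pandas 2.3.3 and matplotlib 3.10.9 were used for tables and plots.

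The genes, the other gene lists and the tests were chosen with earlier results of these data known. The rule named, of the 35 genes, those called, those whose diets did not overlap and the 3 of each class with the most counts; the rest were described as well. Of other lists it named up to 3 called genes with the smallest p, and of marker lists the gene with the most counts. The remaining called genes of the signaling list, and Foxj1, Cspg4, Anpep, Bglap, Bglap2 and Ibsp, were named after their values were seen. Some genes of the lists were not analysed or are not reported here.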

Additional observations from a re-analysis of the deposited data

How the results depend on the processing

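No paired analysis was possible because the labels give every mouse its own number. With the diets of 3 mice each, changes of genes with few counts, such as Cnn1 and Higd1b, were not resolved at this depth. The number of genes called lower, 1 as reported, was 2 with no filter on low counts and 0 with upper-quartile factors, DESeq2 or limma voom. Of all features, 8.60% were called as reported and 6.54%, 8.63%, 4.98% and 8.67% in these 4 settings. Leaving out 1 mouse gave 0 to 5 genes lower and 1 to 4 higher, with 5.95% to 12.55% of all features called. In these fits the median log2 fold change was 0.054 to 0.140 for pericyte genes, -0.067 to 0.115 for smooth muscle genes and -0.056 to 0.112 for meningeal genes. For the 6 other pathway lists, 6 genes were called lower with no filter, and leaving out 1 mouse gave 6 to 15 higher and 1 to 9 lower. The cause of these shifts was not tested. Col4a2 kept its direction and an unadjusted p under 0.05 in all 13 alternatives, with adjusted p from 0.0535 to 0.679, while Rgs5 and Slc47a1 did so in 10 and Ogn in 6. Under these 13 alternatives no gene of the 35 passed an adjusted p of 0.05.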
